A study of Arabidopsis thaliana with 18 samples.

Results

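The transcripts described here belong to 34 genes of phosphate starvation signalling and phosphate uptake in Arabidopsis thaliana, of 32833 genes in the deposited count files. The rule that picked the members names genes of the pathway and uses no measured value, although earlier results of these data were known when it was written. They were the non-coding RNAs IPS1 and AT4, the sensors SPX1 to SPX4, the uptake transporters PHT1;1 to PHT1;9, the exporters PHO1 and PHO1;H1, the ubiquitin pathway genes PHO2 and NLA, the trafficking factor PHF1, the transcription factors PHR1 and PHL1, the vacuolar transporter PHT5;1, and 11 genes of phosphate recovery and metabolism. Those 11 were PAP10, PAP12, PAP14, PAP17, PAP26, PEPC1, PS2, PPCK1, PPCK2, RNS1 and G3Pp1.

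Poly(A) RNA of whole seedlings, all of ecotype Col-0, was sequenced in 18 libraries. The genotypes were als3-1, sog1-7 and wild type. Seedlings grew for 84 h after sowing in continuous light at 20 degrees C, on gel medium soaked to carry AlCl3 at 1.5 or 0 mM and set to pH 4.2. ALS3 encodes an ABC transporter-like protein needed for aluminium tolerance, and SOG1 is a transcription factor of the DNA damage response. The study's design text calls sog1-7 a loss-of-function mutant that tolerates aluminium, and compares it with als3-1 to find genes tied to the arrest of root growth. Each of the 6 groups of genotype and AlCl3 concentration has 3 libraries, numbered replicate 2, 3 and 4, and values below are given in that order. The phosphate supply of the gel is not given in the sources used here. Nothing in the labels says that replicates came from separate cultures, so p-values measure the spread between these libraries, which may be technical.

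Plants short of phosphate switch on a shared gene programme. The transcription factor PHR1 and its relative PHL1 bind a short motif in target promoters, and SPX proteins bound to inositol pyrophosphates hold PHR1 back when phosphate is plentiful. Targets include uptake transporters, secreted acid phosphatases, lipid-remodelling enzymes, the microRNA miR399, and IPS1 and AT4. The microRNA lowers PHO2, a ubiquitin-conjugating enzyme that removes PHT1 and PHO1 proteins, while IPS1 and AT4 carry a decoy site that captures the microRNA without being cut.

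The sequences of this loop are shown because the members that rose in all 3 genotypes, IPS1 and AT4, are its decoys. All come from the RefSeq annotation and sequence of the reference assembly (TAIR10.1), with coordinates that match the build named in the submitters' notes, TAIR10. In the microRNAs the capitals mark the seed, bases 2 to 8. In the sites the capitals mark bases in A to U or G to C pairs with the microRNA, and G to U pairs are in lower case. miR399a to miR399f all have the same seed, and miR827 has another.
miR399a (chr1:10227165-10227185, plus strand): uGCCAAAGgagauuugcccug
miR399b (chr1:23345387-23345407, minus strand): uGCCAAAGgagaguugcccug
IPS1 site for miR399b (chr3:3051224-3051247, plus strand): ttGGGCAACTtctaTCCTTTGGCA
AT4 site for miR399b (chr5:895149-895172, plus strand): ttGGGCAACTtcgaTCCTTTGGCA
PHO2 site for miR399a (chr2:14281884-14281904, minus strand): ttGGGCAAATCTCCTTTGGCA
miR827 (chr3:22122811-22122831, minus strand): uUAGAUGAccaucaacaaacu
NLA site for miR827 (chr1:635401-635421, plus strand): tGTTTGTTGATGGTCATCTAA
The IPS1 and AT4 sites each have 3 extra bases opposite positions 10 and 11 of the microRNA, plus 3 unpaired or mismatched positions of which 2 are G to U pairs. The annotation places both sites in coding sequence, although IPS1 and AT4 are called non-coding RNAs here. The PHO2 transcript has 5 miR399 sites in its annotated 5′ UTR, each with 2 mismatched positions and 0 extra bases, of which 1 is printed. NLA, a ubiquitin ligase for PHT1 proteins, has 1 site for miR827 in its annotated 5′ UTR.

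Levels are given as counts per 1e6 counts (CPM) scaled by TMM, and changes as log2 fold changes ± SE with 3 libraries in each group. A gene is said to have risen or fallen, or is called, where edgeR's quasi-likelihood test gave a Benjamini-Hochberg adjusted p under 0.05 over the 21650 genes tested. Depth was 25.56 to 44.57 (median 35.1) times 1e6 counts a library, so that 3 counts stood for 0.0673 to 0.117 CPM in a library. Of the 34 members 31 had enough counts to be tested. PHT1;6 had 0 counts in all 18 libraries together, which allows up to 0.0673 to 0.117 CPM in any of them, while PHT1;3 had 5 and PHT1;8 had 17. A second edgeR fit took the replicate number as a block, because same-numbered libraries deviated together, and the calls it added among the members are given with the results. Values and counts given as edgeR's come from the fit without the block unless the block is named. The library set has 3 libraries with little ribosomal RNA, 0.0168% to 0.0285% of counts against 0.909% to 5.71% in the other 15. They are replicate 2 of als3-1 with aluminium and replicate 2 of sog1-7 at either concentration. These 3 deviated together (correlations of 0.69 to 0.755), and less with the other replicate 2 libraries (−0.0496 to 0.246). The block gives all libraries of a replicate number the same shift, and calls made only with the block rest on that. SOG1 had 13.6 to 19.5 CPM and ALS3 1.55 to 7.88 CPM over the 18 libraries, in every group, so these transcripts do not check the genotype labels.

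With aluminium members rose in every genotype, and 0 of the 31 fell in any single genotype with edgeR without the replicate block. In als3-1 12 members rose, where 4.56% of all tested genes rose, 6.29% fell and 10.8% were called in either direction. In sog1-7 4 rose, where 0.739% of genes rose, 0.448% fell and 1.19% were called. In wild type 2 rose, where 0.896% of genes rose, 0.988% fell and 1.88% were called. Taken over genotypes, 19 of the 31 were called in at least 1 of the 12 comparisons made and 12 in none, where 27.8% of all tested genes were called in at least 1. With the replicate block 17 rose and 1 fell in als3-1, 11 rose in sog1-7 and 8 rose in wild type, where 8.42%, 1.62% and 1.72% of all genes rose under that fit. Without the 3 libraries low in ribosomal RNA the counts of members that rose were 14, 4 and 4. The count in als3-1 was 5 without 1.5 mM replicate 3 and 7 without 0 mM replicate 2.

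IPS1 and AT4 rose in all 3 genotypes, PEPC1 and PAP14 in both mutants, and 8 members in als3-1 alone among the single-genotype tests. Those 8 were SPX3, PHT1;4, PHO1;H1, PHO2, PHF1, PAP12, PS2 and PPCK1. Being called in one genotype and not in another is no test of a difference between them, and those tests follow below. Every 1.5 mM library stood above every 0 mM library for 15 members in als3-1, 12 in sog1-7 and 14 in wild type, where 13.5%, 7.11% and 9.15% of all tested genes did so. The median member changed by 0.75 in als3-1, 0.46 in sog1-7 and 0.44 in wild type, against medians of 0.02, 0.00 and 0.00 over all tested genes. In whole seedlings a change in the number of cells of a type and a change in RNA per cell cannot be told apart.

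**Figure D1:**
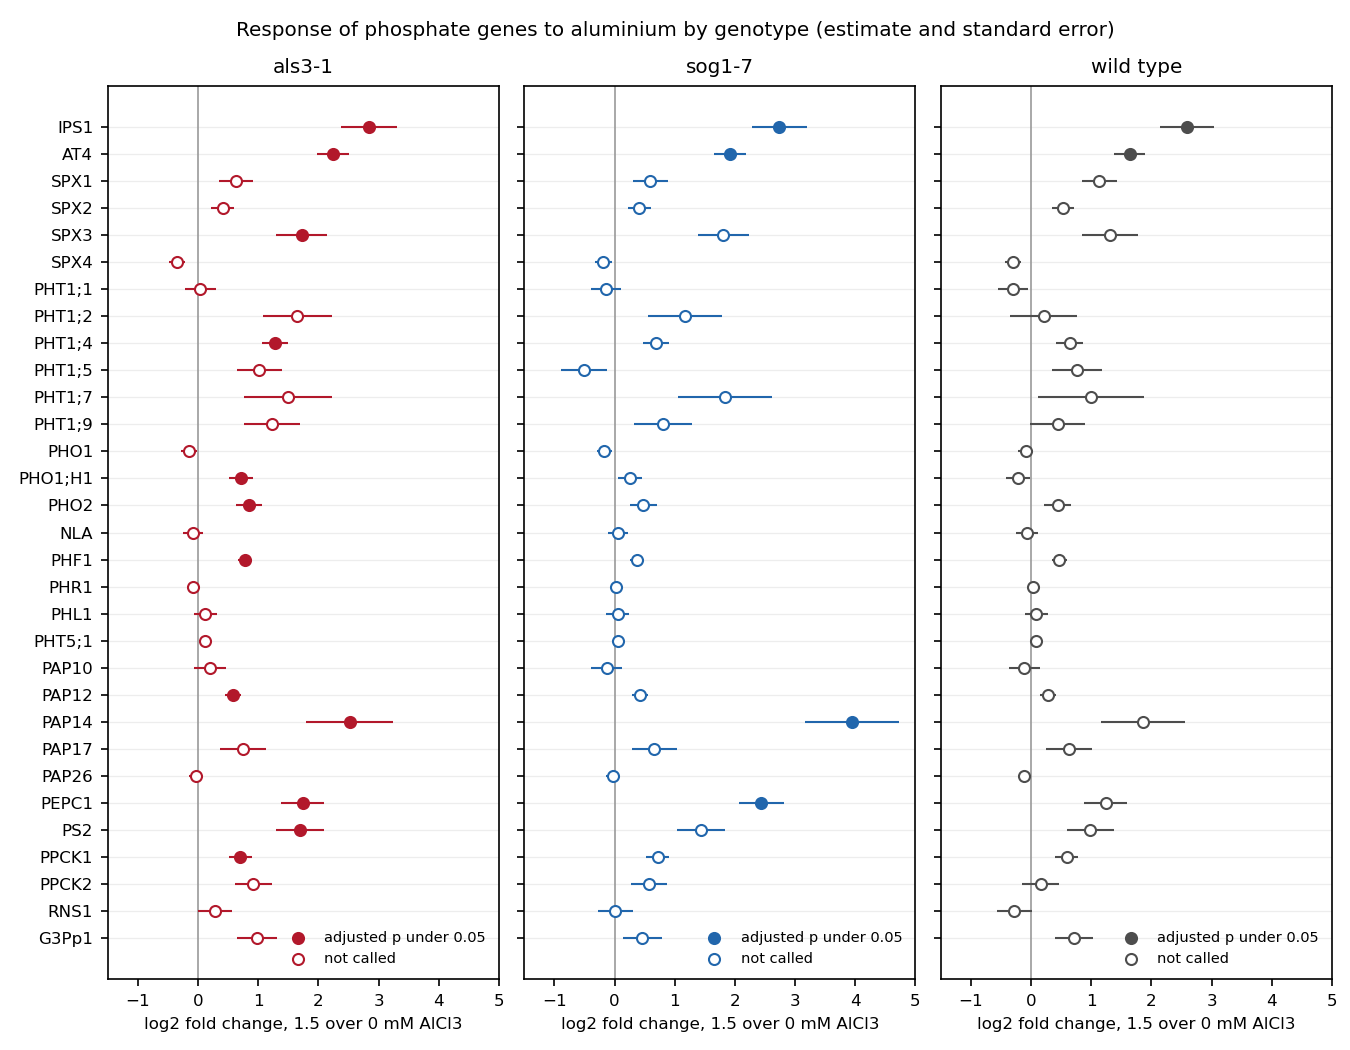
Log2 fold change (1.5 over 0 mM AlCl3) with standard error for the 31 tested members in als3-1, sog1-7 and wild type, with 3 libraries in each group. Filled points had an adjusted p under 0.05: 12 members in als3-1, 4 in sog1-7 and 2 in wild type, all to the right of 0.

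Taken as the mean of the 3 genotypes' responses, 16 members rose and 1 fell, where 6.13% of all tested genes rose, 7.5% fell and 13.6% were called. With the replicate block 19 rose and 1 fell, where 9.88% of genes rose and 21.8% were called. The 16 were IPS1, AT4, SPX1, SPX2, SPX3, PHT1;4, PHT1;7, PHO2, PHF1, PAP12, PAP14, PAP17, PEPC1, PS2, PPCK1 and G3Pp1, and the 1 that fell was SPX4. The calls of PHT1;7 and PAP17 were close to the threshold and ended in 13 and 14 of 18 fits that left out 1 library (edgeR adjusted p = 0.0508 to 0.122 and 0.0536 to 0.11). That of SPX4 ended without als3-1 0 mM replicate 4, als3-1 1.5 mM replicate 3, sog1-7 0 mM replicate 4, wild type 0 mM replicate 4 or wild type 1.5 mM replicate 3 (edgeR adjusted p = 0.0502 to 0.0533). The other 14 calls held in all 18 of those fits. Root hair markers moved the other way in the same libraries, with 3 of 7 lower in the mean response and summed levels of 151 to 235 CPM at 1.5 mM against 268 to 336 CPM at 0 mM in als3-1, 166 to 331 against 317 to 466 CPM in sog1-7, and 141 to 270 against 341 to 400 CPM in wild type. No root hair marker stood at 0 in every library, and the part of these cells in the member results was not tested.

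IPS1 (AT3G09922, chromosome 3, 3050989 to 3051530) had the largest mean response among members after PAP14. In als3-1 it had 5.71, 7.93 and 6.86 CPM at 1.5 mM, against 0.999, 1.1 and 0.78 CPM at 0 mM. In sog1-7 it had 9.47, 10.5 and 6.47 CPM at 1.5 mM, against 2.18, 1.34 and 0.303 CPM at 0 mM. In wild type it had 16.7, 18.7 and 7.35 CPM at 1.5 mM, against 2.78, 1.88 and 2.42 CPM at 0 mM. The concentrations did not overlap in any genotype, and wild type had the highest mean level at both. IPS1 rose by 2.84 ± 0.47 in als3-1 (edgeR adjusted p = 0.00112), by 2.74 ± 0.46 in sog1-7 (0.00477) and by 2.59 ± 0.45 in wild type (0.00567).

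AT4 (AT5G03545, chromosome 5, 894582 to 895517), the second decoy RNA, was more abundant. It had 71.6, 139 and 112 CPM in als3-1 at 1.5 mM, against 24.5, 25.4 and 18.6 CPM at 0 mM. The sog1-7 seedlings had 50.8, 92.2 and 69.7 CPM at 1.5 mM, against 20.6, 20 and 15.6 CPM at 0 mM. Wild type had 121, 133 and 90.8 CPM at 1.5 mM, against 43.5, 37.5 and 29.8 CPM at 0 mM. Again the concentrations did not overlap in any genotype. AT4 rose by 2.24 ± 0.26 in als3-1 (edgeR adjusted p = 4.96e-05), 1.92 ± 0.26 in sog1-7 (0.000864) and 1.64 ± 0.26 in wild type (0.00273). The calls of IPS1 and AT4 held in each of the 6 fits per genotype that left out 1 library.

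**Figure D2:**
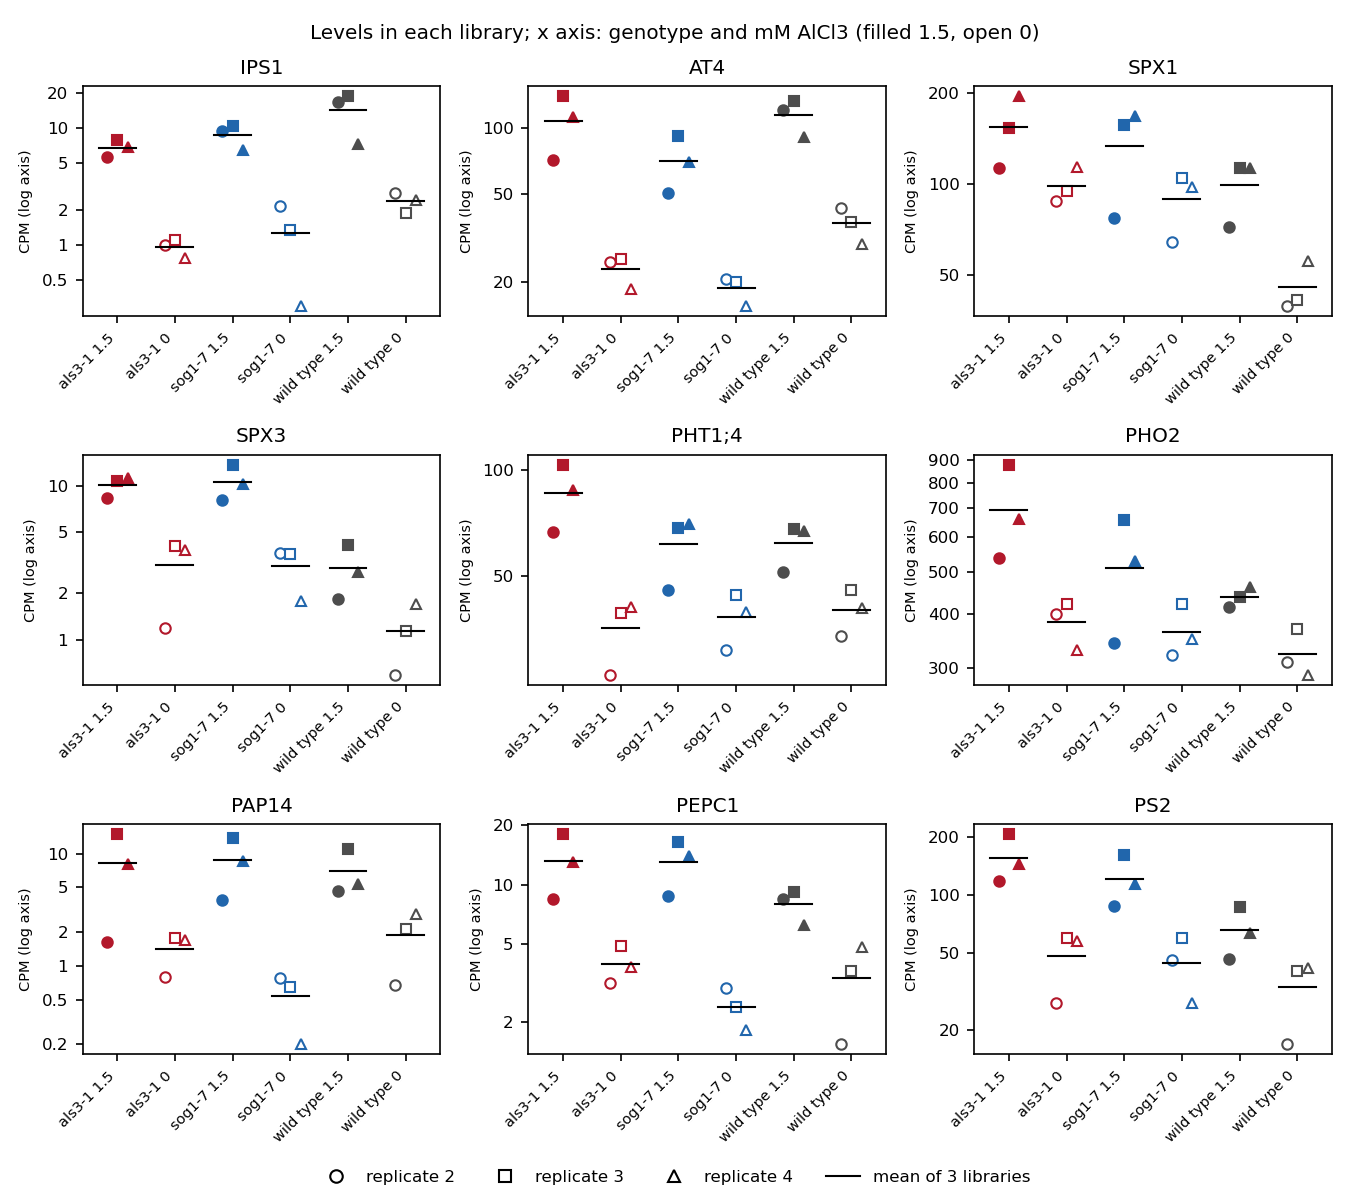
TMM-scaled CPM on a log axis in each of the 18 libraries for 9 members, with filled symbols for 1.5 mM and open symbols for 0 mM AlCl3, shapes for replicates and a bar for the mean of 3 libraries. The 1.5 mM libraries of IPS1 and AT4 stand above the 0 mM libraries in each genotype, while those of SPX1 and PAP14 in als3-1 lie partly at the same height.

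The microRNA precursors gave almost no poly(A) counts. Over the 3 libraries of a group the primary transcripts MIR399A to MIR399F had between 0 and 39 counts each, the highest being MIR399C with 39 in sog1-7 at 1.5 mM against 6 at 0 mM. MIR827A had 24 counts in als3-1 at 1.5 mM against 20 at 0 mM, 50 against 12 in sog1-7 and 29 against 7 in wild type, and rose in the mean response (1.32 ± 0.37, edgeR adjusted p = 0.0235). Mature microRNAs were not measured by these libraries.

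PHO2 (AT2G33770, chromosome 2, 14277558 to 14283113), the target of miR399, was higher at 1.5 mM. It had 537, 876 and 661 CPM in als3-1 at 1.5 mM, against 400, 422 and 331 CPM at 0 mM. It had 342, 657 and 530 CPM in sog1-7 at 1.5 mM, against 322, 422 and 350 CPM at 0 mM. Wild type had 415, 437 and 462 CPM at 1.5 mM, against 310, 370 and 290 CPM at 0 mM. The concentrations were apart in als3-1 and wild type, and sog1-7 1.5 mM replicate 2 lay among the 0 mM values. PHO2 rose in als3-1 by 0.85 ± 0.22 (edgeR adjusted p = 0.0205) and in the mean response by 0.59 ± 0.13 (0.00482). Its call in als3-1 ended without 0 mM replicate 2, 0 mM replicate 4 or 1.5 mM replicate 3 (0.0558 to 0.114), and it was not called in sog1-7 (0.48 ± 0.22) or wild type (0.44 ± 0.22). NLA, the second route to PHT1 removal, had changes between −0.08 and 0.06 in the 3 genotypes and was called in none. It shares 278 and 49 bases with genes on the opposite strand.

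The SPX genes, whose proteins are feedback sensors of phosphate, had responses of both signs. In the mean response SPX1, SPX2 and SPX3 rose by 0.78 ± 0.17, 0.45 ± 0.11 and 1.61 ± 0.25, and SPX4 fell by 0.28 ± 0.08 (edgeR adjusted p = 0.00446, 0.011, 0.000439 and 0.0244). SPX3 (AT2G45130) had 8.35, 10.7 and 11.2 CPM in als3-1 at 1.5 mM, against 1.2, 4.09 and 3.85 CPM at 0 mM. SPX3 had 8.06, 13.5 and 10.2 CPM in sog1-7 at 1.5 mM, against 3.64, 3.59 and 1.78 CPM at 0 mM, and in wild type 1.85, 4.11 and 2.76 CPM against 0.596, 1.14 and 1.7 CPM. The groups were apart in all 3 genotypes, and wild type at 1.5 mM lay close to the levels of the mutants at 0 mM. The rise of SPX3 was called in als3-1 (1.72 ± 0.43, edgeR adjusted p = 0.0158) and that call ended without 0 mM replicate 2 or 1.5 mM replicate 3 (0.0508 to 0.0542). In sog1-7 it missed the threshold with 1.81 ± 0.43 (0.0529, and 0.0147 with the replicate block), as in wild type with 1.31 ± 0.46 (0.238).

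SPX1 (AT5G20150), the most abundant SPX transcript, had 113, 153 and 195 CPM in als3-1 at 1.5 mM, against 88.2, 94.6 and 114 CPM at 0 mM. It had 77.5, 157 and 168 CPM in sog1-7 at 1.5 mM, against 64.4, 105 and 97.8 CPM at 0 mM. In wild type SPX1 had 72, 113 and 113 CPM at 1.5 mM, against 39.6, 41.3 and 55.8 CPM at 0 mM. Only wild type had no overlap between the concentrations, and replicate 2 was the lowest library of every group. No single-genotype response of SPX1 was called (0.63 ± 0.29 in als3-1, 0.59 ± 0.29 in sog1-7, 1.13 ± 0.29 in wild type), but with the replicate block it rose in als3-1 (0.60 ± 0.15, edgeR adjusted p = 0.0149) and in wild type (1.10 ± 0.16, 0.00106).

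SPX2 (AT2G26660) had 26.5, 37.1 and 40.8 CPM in als3-1 at 1.5 mM against 27.3, 26.4 and 24.6 CPM at 0 mM, with 1 library of 1.5 mM inside the 0 mM range. In sog1-7 it had 21.7, 33.8 and 37.3 against 19, 26.3 and 24.4 CPM, and in wild type 25, 31.1 and 29.2 against 18.9, 19.7 and 20.4 CPM. SPX4 (AT5G15330) had 7.34, 6.84 and 8.59 CPM in als3-1 at 1.5 mM, against 9.67, 8.99 and 10.4 CPM at 0 mM. Its sog1-7 libraries had 9.91, 8.61 and 9.06 CPM at 1.5 mM against 9.42, 10.5 and 11.5 CPM at 0 mM, and wild type had 8.68, 7.93 and 9.65 against 10.7, 9.3 and 12.4 CPM. The concentrations were apart in als3-1 and overlapped in sog1-7 and wild type. SPX4 fell in als3-1 with the replicate block (−0.36 ± 0.10, edgeR adjusted p = 0.0244).

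No response of the transcription factors PHR1 and PHL1 was called. PHR1 (AT4G28610) had 43.9, 40.1 and 48.9 CPM in als3-1 at 1.5 mM, against 47.9, 46.1 and 47 CPM at 0 mM. PHR1 had 43.6, 42.3 and 46.9 against 42.5, 43.6 and 44.1 CPM in sog1-7, and 51.7, 49.7 and 50.5 against 53.7, 43.8 and 50.7 CPM in wild type. All groups overlapped, and the mean response was −0.01 with a 95% interval of −0.12 to 0.11. PHL1 had a mean response of 0.09 (−0.14 to 0.32). Of 7 other phosphate regulators tested, which are not members, 2 rose in als3-1 and 0 in sog1-7 or wild type. Of all tested genes 4.56%, 0.739% and 0.896% rose in the same order. PHR1 shares 59 bases with a gene on the opposite strand, and the strand setting of the counting is not given in the sources used here.

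Among the uptake transporters PHT1;1 and PHT1;4 made up 95.3% to 99.3% of the summed FPKM (fragments per kilobase and 1e6 fragments, as deposited) of the 9 PHT1 genes. PHT1;1 held 48.2% to 74.8% of that sum and PHT1;4 23.8% to 49.5%, and no other member held more than 2.33%. PHT1;1 (AT5G43350) had 65.3, 127 and 90.6 CPM in als3-1 at 1.5 mM, against 69.9, 117 and 89 CPM at 0 mM. It had 68.8, 96.6 and 72 against 77.8, 94.6 and 88.7 CPM in sog1-7, and 81.3, 122 and 83.1 against 104, 145 and 104 CPM in wild type. The concentrations overlapped in each genotype, and the mean response was −0.14 (95% interval −0.44 to 0.17).

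PHT1;4 (AT2G38940), the second transporter of the root surface, behaved otherwise. It had 66.5, 103 and 87.5 CPM in als3-1 at 1.5 mM, against 26.1, 39.2 and 40.8 CPM at 0 mM. It had 45.5, 68.4 and 70.3 CPM in sog1-7 at 1.5 mM, against 30.7, 43.9 and 39.3 CPM at 0 mM. Wild type had 51.3, 67.7 and 67.2 CPM at 1.5 mM, against 33.6, 45.5 and 40.3 CPM at 0 mM. All 1.5 mM libraries were above all 0 mM libraries of their genotype, and replicate 2 was lowest in every group. PHT1;4 rose by 1.28 ± 0.22 in als3-1 (edgeR adjusted p = 0.00159), a call kept without any 1 of the 6 libraries. It was not called in sog1-7 (0.69 ± 0.22) or wild type (0.64 ± 0.22), and rose there with the replicate block (0.68 ± 0.09, 0.00055, and 0.64 ± 0.09, 0.000853).

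The remaining PHT1 genes were scarce. PHT1;7 (AT3G54700) had 0.641, 3.01 and 1.15 CPM in als3-1 at 1.5 mM, against 0.264, 0.965 and 0.472 CPM at 0 mM, and replicate 3 was the highest library of both. It had 0.374, 2.31 and 0.491 against 0.172, 0.439 and 0.269 CPM in sog1-7, and 0.277, 0.785 and 0.28 against 0.199, 0.336 and 0.124 CPM in wild type. The groups overlapped in each genotype, and PHT1;7 rose in the mean response alone (1.44 ± 0.46, edgeR adjusted p = 0.0488) and, with the replicate block, also in als3-1 (1.4 ± 0.31, 0.00627) and sog1-7 (1.60 ± 0.34, 0.0212). PHT1;2, PHT1;5 and PHT1;9 were not called in any genotype, with medians of 0.51, 0.151 and 0.216 FPKM over 18 libraries. PHT1;2 rose with the replicate block in als3-1 (1.58 ± 0.43, edgeR adjusted p = 0.02) and in the mean response (0.99 ± 0.26, 0.0138), as did PHT1;9 in the mean response (0.77 ± 0.24, 0.034). The coding sequences of PHT1;1 and PHT1;2 are 97.7% identical with a run of 404 identical bases, and those of PHT1;1 and PHT1;3 are 90% identical, so the split of reads among these neighbours on chromosome 5 is uncertain.

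**Figure D3:**
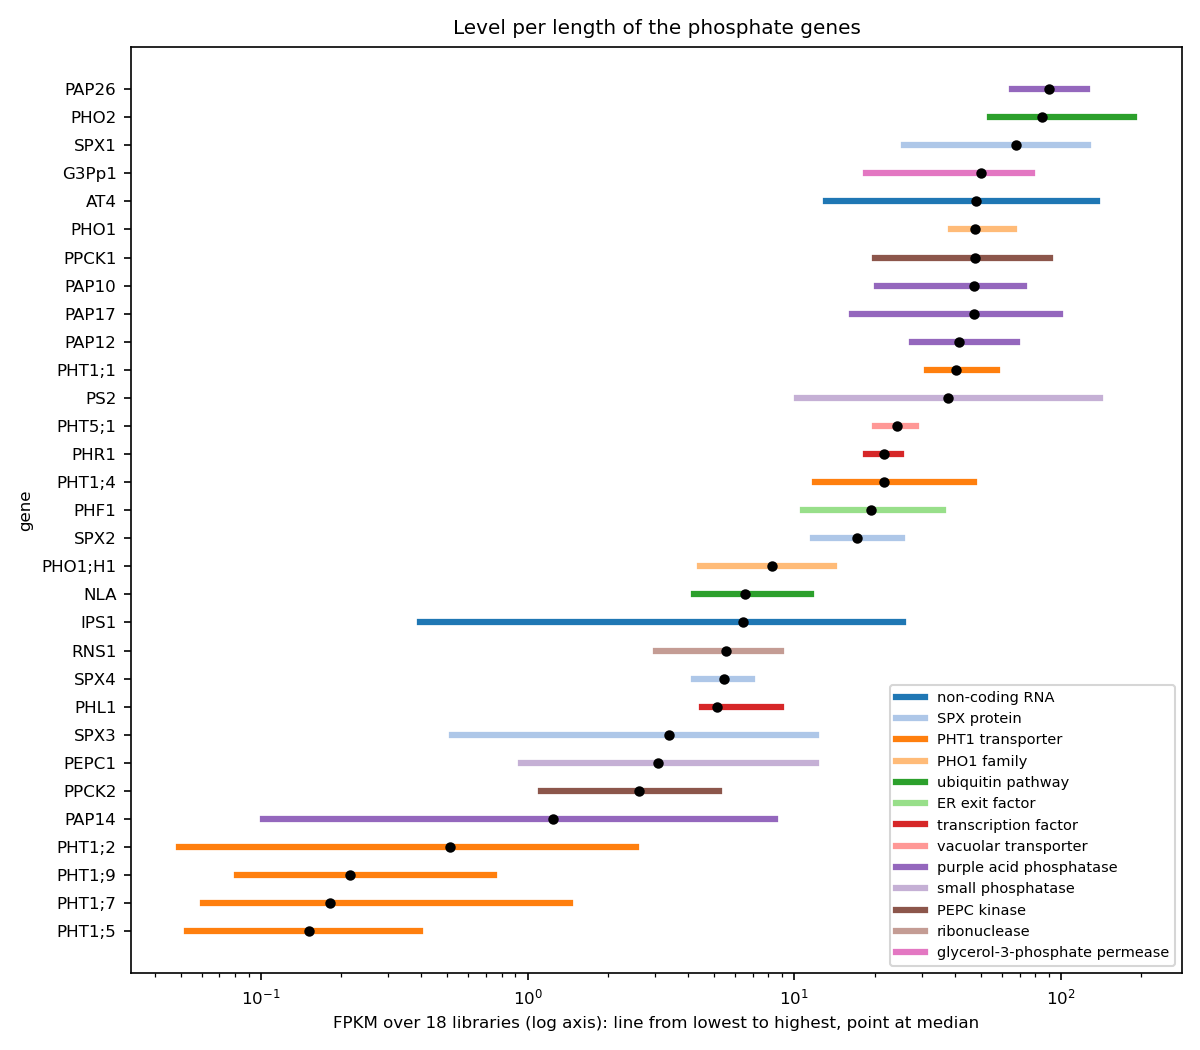
Deposited FPKM of 31 members over the 18 libraries on a log axis, with a line from the lowest to the highest library and a point at the median, coloured by role. PAP26 and PHO2 had the highest medians (90.4 and 84.6 FPKM), and PHT1;2, PHT1;9, PHT1;7 and PHT1;5 the lowest. PHT1;3, PHT1;6 and PHT1;8, with at most 0.0813 FPKM in any library, are left out.

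PHO1 (AT3G23430), which loads phosphate into the xylem, had 128, 169 and 158 CPM in als3-1 at 1.5 mM, against 164, 185 and 155 CPM at 0 mM. It had 154, 184 and 156 against 195, 192 and 169 CPM in sog1-7, and 170, 191 and 158 against 176, 199 and 180 CPM in wild type. The concentrations overlapped in each genotype, and the mean response was −0.14 (95% interval −0.29 to 0.02). Its relative PHO1;H1 (AT1G68740) had 35.3, 34.4 and 33.4 CPM in als3-1 at 1.5 mM, against 25.2, 21.5 and 16 CPM at 0 mM. PHO1;H1 had 40.7, 33.2 and 36.4 against 42, 28.2 and 21.7 CPM in sog1-7, and 32, 24.1 and 27.6 against 30.1, 35.2 and 32.2 CPM in wild type. Only als3-1 had no overlap, and there PHO1;H1 rose by 0.72 ± 0.20 (edgeR adjusted p = 0.0317). That call ended in 5 of 6 fits without 1 library, all but the one without 0 mM replicate 2 (0.0512 to 0.14).

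PHF1 (AT3G52190), which lets PHT1 proteins leave the endoplasmic reticulum, had 66.2, 72.4 and 67.3 CPM in als3-1 at 1.5 mM, against 35.5, 43 and 41.3 CPM at 0 mM. It had 47.3, 57.2 and 55.2 CPM in sog1-7 at 1.5 mM against 39.5, 46.1 and 38.1 CPM at 0 mM, and 41.7, 44.7 and 49.1 against 27.5, 34.6 and 35.4 CPM in wild type. The concentrations were apart in all 3 genotypes, with the narrowest gap in sog1-7. PHF1 rose in als3-1 by 0.78 ± 0.12 (edgeR adjusted p = 0.000671), kept in all 6 fits without 1 library. It rose in sog1-7 (0.37 ± 0.09, 0.0378) and wild type (0.48 ± 0.09, 0.00608) with the replicate block only. PHT5;1, the vacuolar importer of phosphate, had responses of 0.05 to 0.11 and was called in none.

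Of the 5 purple acid phosphatases, enzymes that free phosphate from organic esters, PAP12, PAP14 and PAP17 rose in the mean response (0.43 ± 0.07, 2.77 ± 0.42 and 0.68 ± 0.22). PAP10 and PAP26 did not, with −0.01 (95% interval −0.33 to 0.30) and −0.06 (−0.19 to 0.08). PAP14 (AT2G46880) had 1.63, 14.8 and 8.07 CPM in als3-1 at 1.5 mM, against 0.793, 1.76 and 1.68 CPM at 0 mM, and 1.5 mM replicate 2 lay inside the 0 mM range. It had 3.82, 13.8 and 8.5 CPM in sog1-7 at 1.5 mM, against 0.776, 0.646 and 0.202 CPM at 0 mM. In wild type it had 4.62, 10.9 and 5.32 against 0.676, 2.11 and 2.88 CPM, so that these genotypes had no overlap. PAP14 rose by 3.95 ± 0.78 in sog1-7 (edgeR adjusted p = 0.0167) and by 2.52 ± 0.72 in als3-1 (0.0337). The call in als3-1 ended in 5 of 6 fits without 1 library, all but the one without 1.5 mM replicate 2 (0.0518 to 0.174), and that in sog1-7 ended without any 0 mM library or without 1.5 mM replicate 3 (0.0635 to 0.092).

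PAP12 (AT2G27190) had 98.4, 140 and 123 CPM in als3-1 at 1.5 mM, against 82.5, 81.9 and 76.6 CPM at 0 mM. It had 93.6, 124 and 115 against 76.2, 88.9 and 82.8 CPM in sog1-7, and 85.9, 86 and 77.8 against 64.2, 69.5 and 71.5 CPM in wild type, with no overlap in any genotype. PAP12 rose in als3-1 by 0.58 ± 0.13 (edgeR adjusted p = 0.0085, and 0.0521 without 1.5 mM replicate 3), and with the replicate block also in sog1-7 (0.42 ± 0.10, 0.0489). PAP17 (AT3G17790) had 96.5, 180 and 189 CPM in als3-1 at 1.5 mM against 72.9, 92.1 and 111 CPM at 0 mM, 75.5, 191 and 179 against 65.4, 119 and 98.2 CPM in sog1-7, and 55.4, 90.7 and 113 against 34.8, 67 and 64.8 CPM in wild type. Its groups overlapped in each genotype, and replicate 2 was the lowest library of every group. It rose in all 3 genotypes with the replicate block only (0.70, 0.59 and 0.64, each ± 0.15, edgeR adjusted p = 0.00471, 0.0469 and 0.0266). PAP17 and PAP10 share 122 and 177 bases with a gene on the opposite strand.

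PEPC1 and PS2 are small phosphatases that act on phosphoethanolamine, phosphocholine and pyrophosphate, and PEPC1 is not the carboxylase of similar name. PEPC1 (AT1G17710) had 8.48, 18 and 13 CPM in als3-1 at 1.5 mM, against 3.17, 4.86 and 3.8 CPM at 0 mM. It had 8.79, 16.4 and 14 against 2.97, 2.38 and 1.82 CPM in sog1-7, and 8.41, 9.2 and 6.23 against 1.55, 3.63 and 4.8 CPM in wild type. No genotype showed overlap, and PEPC1 rose in sog1-7 by 2.44 ± 0.37 (edgeR adjusted p = 0.00252) and in als3-1 by 1.74 ± 0.36 (0.0055), both kept without any 1 library. In wild type it reached 1.24 ± 0.36 (0.119, and 0.0382 with the replicate block). PS2 (AT1G73010) had 119, 207 and 145 CPM in als3-1 at 1.5 mM, against 27.6, 60.3 and 58.2 CPM at 0 mM. It had 87.9, 162 and 115 against 46.3, 60.3 and 27.6 CPM in sog1-7, and 46.8, 86.8 and 64 against 17, 40.7 and 42.1 CPM in wild type. The concentrations were again apart in every genotype. PS2 rose in als3-1 by 1.69 ± 0.40 (0.0125), a call that ended without 0 mM replicate 2 or 1.5 mM replicate 3 (0.0591 to 0.0603). PS2 also rose in sog1-7 (1.39 ± 0.26, 0.00972) and wild type (1.01 ± 0.26, 0.0475) with the replicate block.

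PPCK1 (AT1G08650), a kinase that activates PEP carboxylase, had 75.3, 71.5 and 67.4 CPM in als3-1 at 1.5 mM, against 43.8, 44 and 44.5 CPM at 0 mM. It had 52.4, 64.9 and 54.8 against 44, 37.3 and 23.4 CPM in sog1-7, and 30, 46.6 and 43.8 against 24.4, 28.2 and 27.2 CPM in wild type. The concentrations did not overlap, and the 0 mM libraries of als3-1 lay within 1 CPM of each other. PPCK1 rose in als3-1 by 0.70 ± 0.19 (edgeR adjusted p = 0.0276) and in the mean response by 0.67 ± 0.11 (0.00065). The call in als3-1 ended in 5 of 6 fits without 1 library, all but the one without 1.5 mM replicate 4 (0.0742 to 0.0865), and PPCK1 shares 472 bases with a gene on the opposite strand. Its relative PPCK2 had a mean response of 0.55 ± 0.18 and was called only with the replicate block (0.0474).

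G3Pp1 (AT3G47420), of the glycerol-3-phosphate permease family, had 152, 172 and 172 CPM in als3-1 at 1.5 mM, against 58, 89.4 and 104 CPM at 0 mM. It had 117, 170 and 161 against 106, 112 and 107 CPM in sog1-7, and 49.7, 143 and 154 against 49.8, 77.8 and 84.4 CPM in wild type, where replicate 2 was the same at both concentrations to within 1 CPM. The mutants showed no overlap. G3Pp1 rose in the mean response (0.72 ± 0.19, edgeR adjusted p = 0.0171) and, with the replicate block, in als3-1 (1.03 ± 0.23, 0.0065). Over the 18 libraries PAP26 had 231 to 317 CPM, PHT5;1 71.5 to 92.6 CPM, PHL1 9.09 to 14.4 CPM and NLA 8.09 to 15.9 CPM. PPCK2 had 1.73 to 6.15 CPM and RNS1 3.47 to 12.5 CPM. RNS1, a ribonuclease of phosphate recovery, had a mean response of 0.00 (95% interval −0.35 to 0.36).

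Whether the responses differed between genotypes was tested with the interaction terms. With edgeR 0 of 31 members were called for als3-1 minus wild type, sog1-7 minus wild type or als3-1 minus sog1-7, where 0.402%, 0.00462% and 1.15% of all tested genes were called. At an unadjusted p under 0.05 the counts were 1, 2 and 2, where 8.1%, 2.01% and 8.51% of all genes passed. With DESeq2 and with limma on FPKM the counts were 0 in each. The interval of the IPS1 difference ran from −1.09 to 1.57 for als3-1 minus wild type, from −1.15 to 1.45 for sog1-7 minus wild type and from −1.24 to 1.43 for als3-1 minus sog1-7. For AT4 the intervals were −0.15 to 1.35, −0.47 to 1.03 and −0.43 to 1.07. With the replicate block PHT1;4 alone was called, its response being larger in als3-1 than in wild type (0.64 ± 0.12, edgeR adjusted p = 0.0255) and than in sog1-7 (0.60 ± 0.12, 0.0196). PHO1;H1 had the largest difference of als3-1 from wild type relative to its error (0.94 ± 0.29, 0.29), and PHT1;5 that of als3-1 from sog1-7 (1.53 ± 0.54, 0.319). Summed root markers differed in the same libraries, with 330 to 387 CPM in als3-1 at 1.5 mM against 596 to 735 CPM at 0 mM, 640 to 1000 against 462 to 671 CPM in sog1-7, and 596 to 686 against 640 to 663 CPM in wild type. Of 7 root markers 6 were tested and 3 fell in als3-1, none stood at 0 in every library, and their part in the member results was not tested.

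Members were also compared between each mutant and wild type within a concentration. These comparisons share libraries with the aluminium responses and with each other. At 1.5 mM 4 members were higher in als3-1 than in wild type, SPX3, PHF1, PAP12 and PPCK1, where 2.55% of all tested genes were higher and 5.58% were called. In sog1-7 SPX3 and PAP10 were higher, where 3.75% were higher and 7.4% called. At 0 mM 0 members were called between als3-1 and wild type with edgeR, where 2.32% of genes were called, with 8 at an unadjusted p under 0.05 (14.8% of all genes), 3 with DESeq2 and 1 with limma on FPKM. In sog1-7 at 0 mM SPX1 and PAP10 were higher and AT4 was lower, where 5.29% of genes were higher, 4.92% lower and 10.2% called. Without the replicate block the members called in sog1-7, 2 of 31 at 1.5 mM and 3 of 31 at 0 mM, were thus near the share of all genes. With the replicate block 11 members were higher in als3-1 at 1.5 mM, 7 were higher and 1 lower in sog1-7 at 1.5 mM, 4 were higher and 1 lower in als3-1 at 0 mM, and 6 were higher and 3 lower in sog1-7 at 0 mM. Of all tested genes that fit called 11.6%, 16.7%, 7.37% and 19%. At 1.5 mM the added calls in als3-1 were SPX1, PHT1;4, PHT1;7, PHO2, PAP10, PAP17 and PS2 (0.62 ± 0.15, 0.46 ± 0.09, 1.75 ± 0.32, 0.63 ± 0.16, 0.69 ± 0.16, 0.84 ± 0.15 and 1.26 ± 0.26). In sog1-7 at 1.5 mM they were PHT1;7, NLA, PAP12, PAP17 and PS2, all higher (1.03 ± 0.33, 0.49 ± 0.11, 0.40 ± 0.10, 0.74 ± 0.15 and 0.89 ± 0.25), and AT4, lower (−0.70 ± 0.21). At 0 mM SPX1, PHT1;7, PAP17 and PPCK1 were higher in als3-1 (1.13 ± 0.16, 1.37 ± 0.39, 0.78 ± 0.15 and 0.73 ± 0.19) and PHO1;H1 lower (−0.67 ± 0.17). In sog1-7 at 0 mM SPX3, NLA, PHF1 and PAP17 were added as higher (1.47 ± 0.39, 0.37 ± 0.11, 0.35 ± 0.09 and 0.78 ± 0.15) and PHT1;1 and PHT1;2 as lower (−0.42 ± 0.11 and −1.95 ± 0.47).

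**Figure D4:**
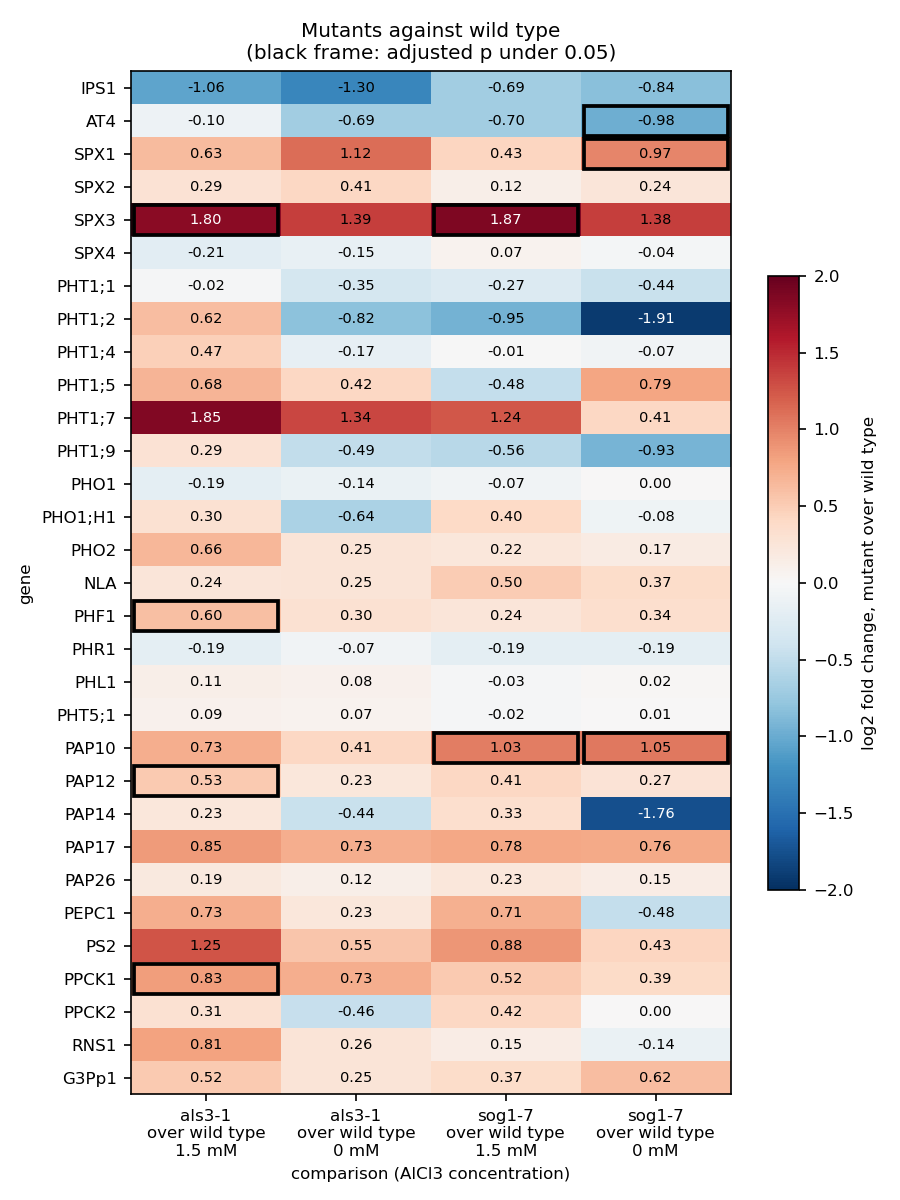
Log2 fold change, mutant over wild type, for the 31 tested members at 1.5 and 0 mM AlCl3, with colour and number for the value and a black frame at an adjusted p under 0.05. SPX3 is framed in both mutants at 1.5 mM and PAP10 in sog1-7 at both concentrations, while IPS1 and AT4 have values below 0 in all 4 columns.

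SPX3 was higher than in wild type at 1.5 mM by 1.8 ± 0.43 in als3-1 (edgeR adjusted p = 0.0221) and by 1.87 ± 0.43 in sog1-7 (0.0175). At 0 mM its differences were 1.39 ± 0.46 in als3-1 (0.136) and 1.38 ± 0.46 in sog1-7 (0.07, and 0.0187 with the replicate block). The 1.5 mM libraries of either mutant stood above all those of wild type. Both calls at 1.5 mM ended without wild type replicate 2 or 4 or without the mutant's replicate 3 or 4 (0.0579 to 0.104 in als3-1 and 0.0501 to 0.0807 in sog1-7).

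SPX1 at 0 mM was higher in sog1-7 by 0.97 ± 0.29 (edgeR adjusted p = 0.0439) and had 1.12 ± 0.29 in als3-1 (0.0545, and 0.00122 with the replicate block). Every 0 mM library of the mutants, from 64.4 to 114 CPM, stood above the 3 of wild type, of which the highest had 55.8 CPM. AT4 went the other way at 0 mM, lower in sog1-7 by 0.98 ± 0.25 (log2 fold change −0.98, 0.0229) and at −0.69 ± 0.25 in als3-1 (0.18). Its mutant libraries at 0 mM had 15.6 to 25.4 CPM and those of wild type 29.8 to 43.5 CPM. The calls of SPX1, AT4 and PAP10 at 0 mM each ended without sog1-7 replicate 3 or 4 or wild type replicate 2 or 3 (0.12 to 0.145 for SPX1, 0.0571 to 0.0948 for AT4 and 0.0559 to 0.087 for PAP10).

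PAP10 (AT2G16430), a phosphatase of the root surface, had 92.8, 162 and 138 CPM in sog1-7 against 61, 63.9 and 66.9 CPM in wild type at 1.5 mM. At 0 mM it had 115, 147 and 166 CPM in sog1-7 against 50.9, 59.8 and 96.9 CPM in wild type. These libraries were apart at both concentrations. Those of als3-1 had 77.3, 118 and 123 CPM at 1.5 mM and 75.2, 83.9 and 118 CPM at 0 mM, and overlapped sog1-7 at both. PAP10 was higher in sog1-7 by 1.03 ± 0.26 at 1.5 mM (edgeR adjusted p = 0.0274) and by 1.05 ± 0.26 at 0 mM (0.0195). Its call at 1.5 mM ended in 5 of 6 fits, all but the one without sog1-7 replicate 2 (0.0643 to 0.113). In als3-1 it was higher at 1.5 mM with the replicate block only (0.69 ± 0.16, 0.0127).

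PHF1 was higher in als3-1 than in wild type at 1.5 mM by 0.60 ± 0.12 (edgeR adjusted p = 0.00857), the only one of these calls to hold in all 6 fits without 1 library. PAP12 and PPCK1 were higher there by 0.53 ± 0.13 and 0.83 ± 0.19 (0.0237 and 0.0178). The PAP12 call ended in 5 of 6 fits, all but the one without als3-1 replicate 2 (0.0627 to 0.116), and that of PPCK1 without als3-1 replicate 2 or 3 or wild type replicate 2 (0.053 to 0.0846). PAP17 was higher in both mutants at both concentrations with the replicate block only (0.74 to 0.84). Between als3-1 and sog1-7 at 1.5 mM 0 members were called with edgeR, where 6.69% of genes were, with 6 at an unadjusted p under 0.05 (20.5% of all genes), 1 with DESeq2 and 0 with limma on FPKM. PHT1;2, PHT1;4, PHT1;5 and PHF1 were higher in als3-1 with the replicate block (1.48 ± 0.42, 0.49 ± 0.09, 1.17 ± 0.35 and 0.37 ± 0.09). That fit called 14.5% of all genes in either direction and 6.36% as higher. These 4 of 31, all higher, were near the first share and above the second, a difference that was not tested.

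Markers of photosynthetic tissue differed along with these comparisons. Their summed level was 17600 to 23500 CPM in als3-1, 10800 to 14300 CPM in sog1-7 and 16700 to 37900 CPM in wild type at 1.5 mM, and 9440 to 19900, 5880 to 10100 and 28300 to 35100 CPM in the same order at 0 mM. Of 7 such markers 1 and 3 were lower in als3-1 and sog1-7 at 1.5 mM, and 2 and 6 at 0 mM. Summed seed markers were 1.27 to 76.4 CPM in als3-1, 6.38 to 61.1 CPM in sog1-7 and 0.968 to 1.72 CPM in wild type at 1.5 mM, and 1.23 to 4.13, 2.52 to 4.08 and 1.46 to 1.98 CPM at 0 mM. Of the 7 seed markers 5 were higher in als3-1 and 2 in sog1-7 than in wild type at 1.5 mM, 0 were called at 0 mM, and 4 rose with aluminium in als3-1. None of these markers stood at 0 in every library, and their part in the member results was not tested.

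Beyond the members, 48 other genes of phosphate homeostasis were listed, of which 38 were tested. In als3-1 14 rose and 3 fell with aluminium, in sog1-7 3 rose and 1 fell, and in wild type 0 rose and 3 fell. Of all tested genes 4.56% rose and 6.29% fell in als3-1, 0.739% and 0.448% in sog1-7, and 0.896% and 0.988% in wild type. The 3 of 38 that fell in als3-1 were near that share. With the replicate block the counts were 19 and 3 in als3-1, 9 and 1 in sog1-7 and 6 and 3 in wild type, where SQD1, SQD2, MGD2, MGD3, NPC4 and GDPD1 rose (0.60 to 1.09). In the same order that fit called 18.9%, 2.65% and 3.71% of all genes, with 8.42%, 1.62% and 1.72% as higher. Enzymes of lipid remodelling, which replace phospholipids with galactolipids and sulfolipids, made up 7 of the 14 in als3-1 and all 3 in sog1-7, with 10 such genes tested. Among them NPC4, a phospholipase C, SQD2, which makes sulfolipid, and MGD2, which makes galactolipid, rose in both mutants and by 1.37 ± 0.14, 0.85 ± 0.10 and 1.15 ± 0.15 in the mean response. SQD1, MGD3, GDPD6 and PLDZ2 of the same process had mean responses of 0.85 ± 0.15, 1.49 ± 0.26, 1.39 ± 0.25 and 1.29 ± 0.25, and were called in als3-1. They rose in sog1-7 too with the replicate block (0.78 ± 0.16, 1.68 ± 0.25, 1.76 ± 0.37 and 1.47 ± 0.24).

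Of the 12 transporters tested on this list, 3 rose and 3 fell in als3-1, 0 rose and 1 fell in sog1-7, and 0 rose and 2 fell in wild type. In the same order 10.8%, 1.19% and 1.88% of all tested genes were called in either direction. PHO1;H2, a relative of PHO1, fell in als3-1 by 1.89 ± 0.20, in sog1-7 by 1.70 ± 0.20 and in wild type by 2.13 ± 0.20 (edgeR adjusted p = 2.03e-05, 0.000251 and 8.48e-05). Its mean response of −1.91 ± 0.12 was opposite to that of IPS1 and AT4 in the same libraries. PHO1;H3 fell in als3-1 (−0.88 ± 0.11) and G3Pp2 in als3-1 (−0.96 ± 0.24) and wild type (−1.06 ± 0.25), while G3Pp3, PHT3;2 and G3Pp4 rose in als3-1 (2.21 ± 0.57, 2.52 ± 0.70 and 0.67 ± 0.19). Of the ferroxidases of local phosphate sensing at the root tip, LPR2 rose in als3-1 (0.79 ± 0.17) and LPR1 fell in wild type (−0.92 ± 0.19).

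The motif bound by PHR1, searched as GNATATNC (N for any base, the same on both strands), was counted upstream of each annotated gene start. Within 300 bases it was present for 8 of 34 members (23.5%), for 20 of 48 other phosphate genes (41.7%) and for 1785 of 27443 protein-coding genes (6.5%). Within 1000 bases the shares were 61.8%, 56.2% and 20.3%. The 48 other genes include 7 microRNA genes, a class that the share over protein-coding genes leaves out. Among these the neighbours MIR399D and MIR399E are counted for the same motif sites between them. The promoters of AT4, SPX3 and PS2 are shown as the 300 bases before the annotated start. These members rose with aluminium in als3-1 and have the motif in that window. The bases run 5′ to 3′ on the gene's strand, with each motif in capitals.
AT4 (chr5:894282-894581, plus strand): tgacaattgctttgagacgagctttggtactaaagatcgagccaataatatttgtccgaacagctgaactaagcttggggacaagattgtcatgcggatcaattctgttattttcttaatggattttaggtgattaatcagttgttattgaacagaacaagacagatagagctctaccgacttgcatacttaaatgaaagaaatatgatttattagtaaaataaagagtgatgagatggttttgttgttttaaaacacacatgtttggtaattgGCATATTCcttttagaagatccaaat
SPX3 (chr2:18606110-18606409, plus strand): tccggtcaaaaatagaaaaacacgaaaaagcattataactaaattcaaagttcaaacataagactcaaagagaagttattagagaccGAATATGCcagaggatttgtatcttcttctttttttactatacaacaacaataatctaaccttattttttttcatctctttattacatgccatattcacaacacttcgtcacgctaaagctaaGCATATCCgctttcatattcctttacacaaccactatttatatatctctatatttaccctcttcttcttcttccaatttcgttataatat
PS2 (chr1:27466349-27466648, minus strand): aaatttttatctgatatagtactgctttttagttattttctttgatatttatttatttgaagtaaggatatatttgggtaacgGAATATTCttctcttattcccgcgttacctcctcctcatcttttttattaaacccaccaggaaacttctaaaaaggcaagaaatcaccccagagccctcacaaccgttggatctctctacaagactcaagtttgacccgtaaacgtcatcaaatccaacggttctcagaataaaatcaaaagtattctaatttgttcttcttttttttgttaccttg
SPX3 holds 2 motifs in this window, AT4 and PS2 1 each, and AT4 and PS2 have 1 more within 1000 bases. IPS1 has 2 within 1000 bases and 0 within 300. PHO2 and PEPC1, which also rose in als3-1, likewise have motifs within 1000 bases and 0 within 300. PHT1;4, PHO1;H1, PHF1 and PAP12, which rose there too, have 0 within 1000 bases, which says only that these letters are not in that window.

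**Figure D5:**
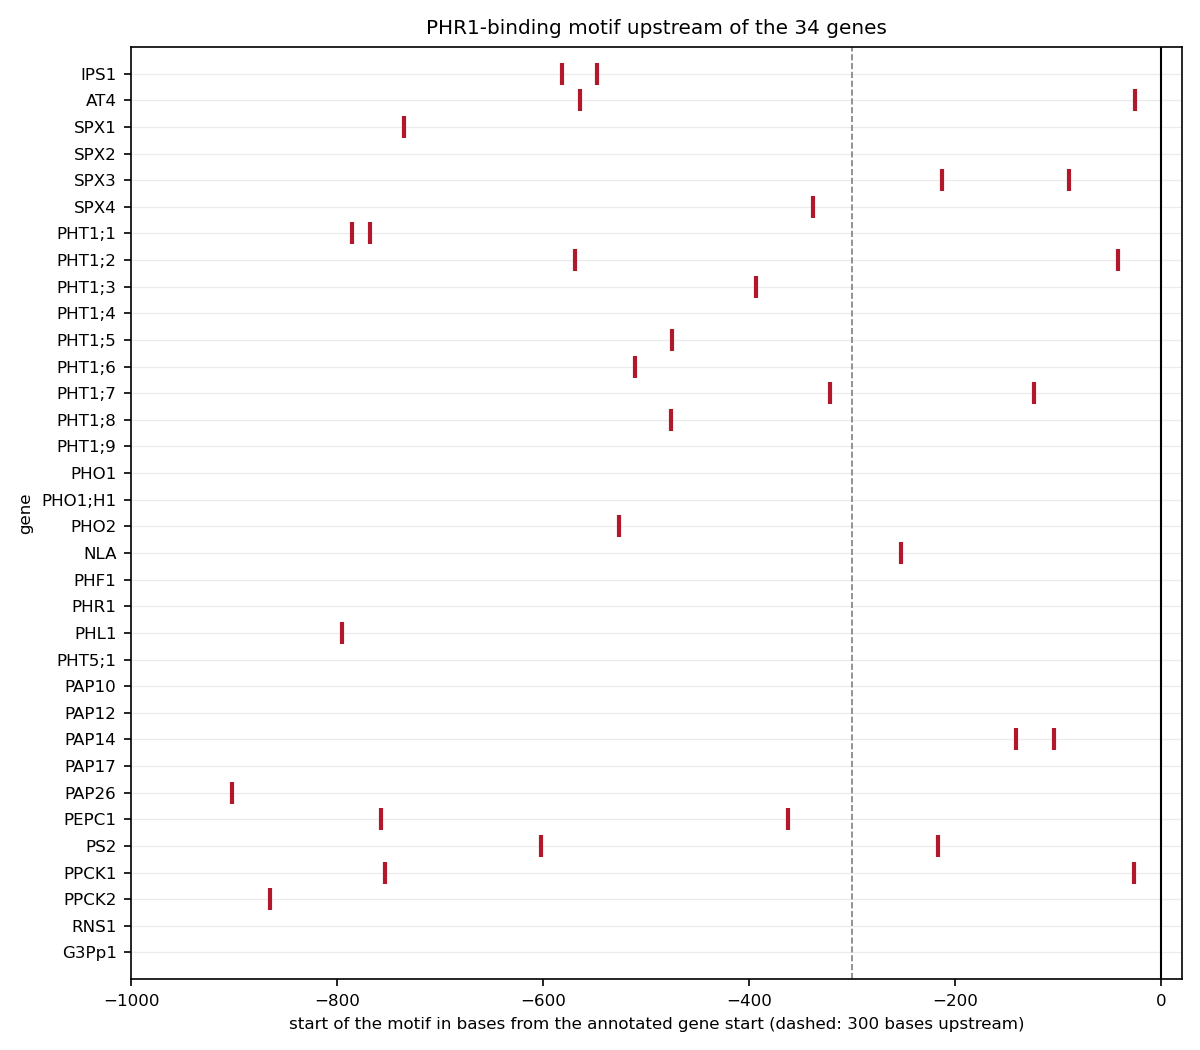
Start of each PHR1-binding motif in bases from the annotated gene start, over 1000 bases upstream of the 34 members. Marks appear for 21 members, of which 8 have 1 or more within 300 bases (right of the dashed line), and 13 members have none.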

How the data were processed

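The authors deposited, for each of the 18 libraries, whole-number read counts per gene and FPKM values per gene. Per the submitters' processing notes, the tools were FastQC 0.11.7, STAR 2.7.3a, featureCounts 2.0.0, Cufflinks 2.2.1 and DESeq2 1.36.0 with build TAIR10. Of these tools featureCounts makes counts and Cufflinks makes FPKM, and how the authors set strand and reads with several matches was not found in the labels. The deposited counts were tested with edgeR 4.0.16 (R 4.3.3): genes were filtered with filterByExpr by group, scaled with TMM, and fitted with robust quasi-likelihood over the 6 groups of 3 libraries, so that all groups share 1 estimate of spread (common biological coefficient of variation 0.214). Adjusted p-values are Benjamini-Hochberg over the 21650 genes tested, separately in each of 12 comparisons, and intervals are 95%. The SE was worked back from the test, as the size of the log2 fold change over the square root of its F value. The intervals were built from that SE. The step was tested on simulated data. Depth was 25.56 to 44.57 times 1e6 counts, and the limit given for a count of 0 is 3 counts and covers counting error only.

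Alternatives were DESeq2 1.42.0, DESeq2's size factors in edgeR, no filter, limma 3.58.1 on log2(FPKM + 1), the replicate number as a block, leaving out the libraries low in ribosomal RNA, and leaving out each library. The replicate numbers were taken to pair libraries because same-numbered libraries of a genotype deviated together, with correlations of 0.206 to 0.755 in 9 of 9 pairs of libraries. Over all pairs of groups, mutants with wild type included, 43 of 45 such pairs were over 0.1 and the lowest was −0.0496, between sog1-7 and wild type at 0 mM in replicate 2. In replicate 2 the libraries low in ribosomal RNA correlated at 0.69 to 0.755 with each other and at −0.0496 to 0.246 with the rest. The rest correlated at 0.241 to 0.623 with each other, so the same shift for all of replicate 2 is uncertain. In replicates 3 and 4 als3-1 at 1.5 mM and sog1-7 at either concentration correlated at 0.402 to 0.581 with each other. With the other groups they correlated at 0.112 to 0.391, so the same shift is uncertain for those numbers too. No label says what a number marks. No pair of replicates agreed within sampling noise (lowest chi-square per degree of freedom 16.96).

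Every member was accounted for. Those called in at least 1 comparison, with IPS1, AT4, SPX1, PHO2, PHR1, PHT1;1 and PHO1, were described by library, and at most 12 other phosphate genes were named. Those 12 were called in the most single-genotype responses, with ties ordered by the adjusted p of the mean response. LPR1, GDPD1, PHT3;2, G3Pp4 and MIR827A were named after their values were seen. The members and lists were chosen with earlier results of these data known. All 34 members matched the reference annotation by gene ID. MicroRNA sites were searched on annotated transcripts, with 3 extra bases allowed opposite microRNA bases 10 and 11.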

Additional observations from a re-analysis of the deposited data

How the results depend on the processing

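Counts of called members changed with several settings. With the replicate block the counts were 8 in wild type, 11 in sog1-7, 1 for als3-1 minus wild type and 1 for als3-1 minus sog1-7, 5 and 9 for als3-1 and sog1-7 against wild type at 0 mM, 11 and 8 at 1.5 mM, and 4 for als3-1 against sog1-7, and 0 calls were lost under the block. DESeq2 gave 5 in wild type, 7 in sog1-7, 3 and 5 for als3-1 and sog1-7 against wild type at 0 mM, and 1 for als3-1 against sog1-7. Without the libraries low in ribosomal RNA the counts were 4 in wild type, 4 and 6 for als3-1 and sog1-7 against wild type at 0 mM, and 9 and 5 at 1.5 mM. With limma on FPKM they were 1 for als3-1 against wild type at 0 mM and 8 at 1.5 mM, and that scale moved the median of all genes by 0.115 to 0.154 in comparisons of mutants with wild type. Leaving out 1 library gave 2 to 4 in wild type, 5 to 11 in als3-1, 0 to 3 for sog1-7 against wild type at 0 mM, 1 to 3 for als3-1 and 0 to 3 for sog1-7 against wild type at 1.5 mM. In als3-1 the lowest counts were 5 without 1.5 mM replicate 3 and 7 without 0 mM replicate 2. Other combinations of comparison and alternative gave counts within 1.5 times those reported.

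Of the single-member values 1486 kept direction and side of the threshold, 41 became called, 102 lost the call and 3 turned direction. A change of sign by no more than 1 SE in a value that was not called counts as kept: 31 values changed sign in all, of which 0 were called. The 3 beyond 1 SE were these: PAP10 in wild type ran from −0.29 to 0.21 (0.21 without 0 mM replicate 4), PHT1;1 in als3-1 from −0.24 to 0.25 (−0.24 without 1.5 mM replicate 3), and PHL1 in sog1-7 from −0.2 to 0.2 (−0.2 without 1.5 mM replicate 2). The causes were not tested. Depth limits the scarce members: PHT1;3, PHT1;6 and PHT1;8 were not tested, and PHT1;5, PHT1;7 and PHT1;9 rest on low counts.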

Other observations

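Replicate numbers did not share the extremes evenly. Of the 31 tested members, 22 in als3-1, 20 in sog1-7 and 17 in wild type had their lowest 1.5 mM value in replicate 2, and 17, 14 and 19 in the same order had their lowest 0 mM value there. Replicate 2 was highest for 3, 7 and 6 members at 1.5 mM and for 5, 15 and 6 at 0 mM, so that in sog1-7 at 0 mM it was highest about as often as lowest. Over all tested genes replicate 2 was lowest for 38.1%, 41.1% and 35.9% at 1.5 mM and for 37.6%, 41% and 35.1% at 0 mM. The libraries low in ribosomal RNA are all replicate 2, while replicate 2 of als3-1 at 0 mM and of wild type at both concentrations are not among them. The part of the replicate number in these values was not tested.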
